A study of Homo sapiens with 4 samples.

Results

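The mitochondrial genome of human cells carries 37 genes, and all of them were measured here in HEK293T cells, a human embryonic kidney line that carries the SV40 large T antigen. The members were chosen by symbol (names beginning with MT-) and number 37 of the 57820 gene IDs in the count tables: 13 protein genes, 2 rRNA genes and 22 tRNA genes. There were 4 libraries, each from cells transfected with a vector for SF3B1, the U2 snRNP subunit that contacts the branch point. The vectors encoded SF3B1 with R625H (1000 ng of plasmid), with K666T (1000 ng), with K700E (2000 ng), or the wild-type protein (WT, amount not given in the sources used here). All were transfected with Lipofectamine 2000 and kept in DMEM with fetal bovine serum, and the labels name no change to the cells' own SF3B1 genes. With 1 library for each vector there is no replicate check, no test was possible, and every interval given is a 95% interval for counting error only. Ratios are mutant over WT on the log2 scale, from CPM, the reads of a gene scaled to all gene reads of its library, with a prior count of 10.

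Mitochondrial RNA is made as long transcripts that start in the control region and run around the circular genome in both directions, and the tRNAs punctuate these precursors so that their excision frees most mRNAs and the rRNAs. The heavy-strand genes of the usual naming, 28 in number, hold both rRNAs and 12 mRNAs. The light-strand genes are 9 in number: MT-ND6, a subunit of complex I, and 8 tRNAs. The proteins are core subunits of the respiratory chain and ATP synthase, which also need subunits from nuclear genes. Most of the mRNAs receive a poly(A) tail, which completes the stop codon of several; 6 of the 13 protein genes have a length that is not a multiple of 3. The mature MT-ND6 mRNA is known to lack such a tail, and the libraries were made from poly(A) RNA, so its reads and those of tRNAs are captured less directly.

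The strands differ in base composition, which the start of a gene from each shows. Both sequences are from GENCODE release 29 (GRCh38), 5′ to 3′ on the strand of the RNA, with G in capitals.
MT-ND6, the first 60 bases: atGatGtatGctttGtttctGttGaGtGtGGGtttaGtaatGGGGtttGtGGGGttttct
MT-CYB, the first 60 bases: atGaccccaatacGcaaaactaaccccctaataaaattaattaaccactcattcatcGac
The stretch holds 21 G in MT-ND6 and 3 in MT-CYB. Over the whole gene, MT-ND6 has 35.6% G and 7.05% C, and MT-CYB 12.01% G and 34.3% C. Both genes are printed because they moved furthest in opposite directions in K700E.

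Some genes overlap, which bears on how their reads were counted. MT-ATP8 and MT-ATP6 share 46 bases and MT-ND4L and MT-ND4 share 7, shown in capitals with 15 bases on each side.
MT-ATP8 and MT-ATP6: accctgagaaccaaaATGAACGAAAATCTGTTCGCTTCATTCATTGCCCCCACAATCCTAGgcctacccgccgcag
MT-ND4L and MT-ND4: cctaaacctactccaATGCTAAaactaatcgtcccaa
A read pair that touches neighbouring genes on the same strand is assigned to none of them, whether the genes overlap or only adjoin. The short genes MT-ATP8 (207 bases) and MT-ND4L (297 bases) thus have fewer reads than their RNA would give. The same holds for other short genes with close neighbours, such as MT-ND3 (346 bases) and tRNA genes. The same counting applies to all 4 libraries.

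The libraries held between 82254731 (R625H) and 90939945 (WT) reads in genes on the strand of the gene. Unmapped pairs made up 16.5, 17.3, 15.2 and 8.84% of pairs in R625H, K666T, K700E and WT, and whether this bears on the ratios was not tested. Of the HEK293T markers matched, NEFM, KRT8, KRT18 and VIM lay between 64.9 and 660.1 CPM in the 4 libraries and PAX2 between 1.75 and 2.65 CPM. Among the markers of other cell types reported here, COL1A1 of fibroblasts had 20.8 to 24.8 CPM, and PTPRC, CD3E, VWF, DCN, ALB and GFAP stayed under 1 CPM.

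The 37 genes took 4.24% of gene reads in R625H, 3.86% in K666T, 3.39% in K700E and 4.08% in WT, from 3491056, 3334694, 2815202 and 3714845 reads. R625H was above WT by a log2 ratio of 0.06 (0.05 to 0.06), K666T was lower by 0.08 (-0.08, -0.08 to -0.08) and K700E lower by 0.27 (-0.27, -0.27 to -0.27). A filter of at least 1 CPM in at least 1 library was passed by 20 of the 37 genes: all 13 protein genes, both rRNA genes and 5 of the 22 tRNA genes. The total hides opposite movements of its parts in K700E. Both rRNAs and MT-ND6 were higher there, and 11 of the 12 heavy-strand mRNAs were lower.

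**Figure D1:**
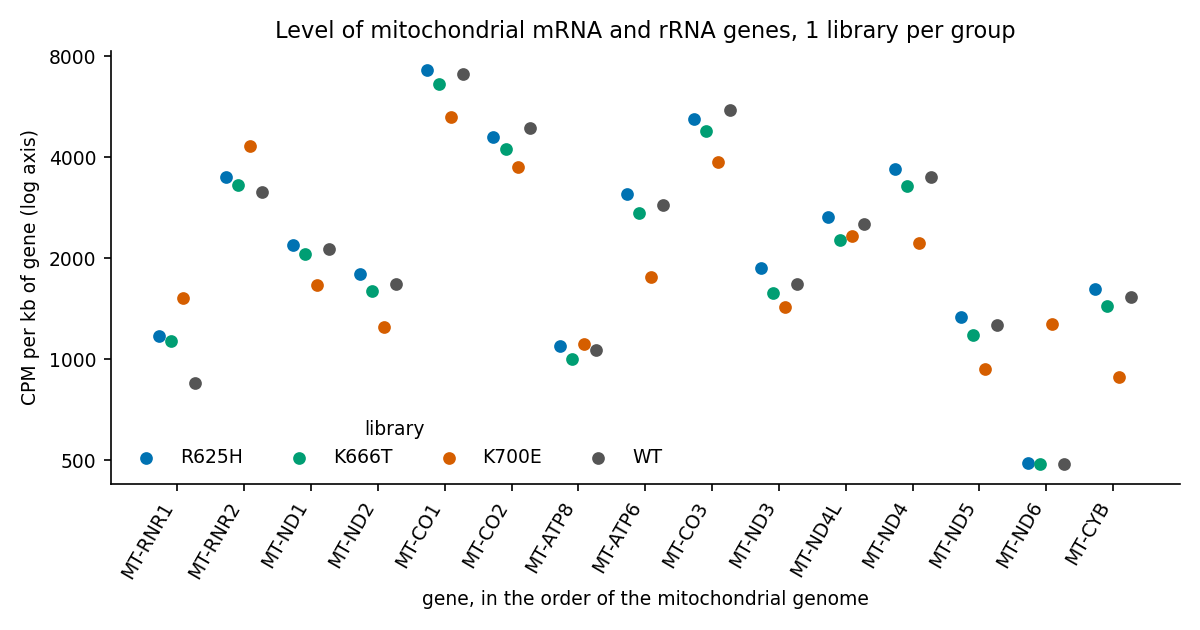
Level of each mitochondrial mRNA and rRNA gene in CPM per kb of gene (log axis), 1 point for each library, with genes in genome order. MT-CO1 stands highest in each library, and MT-ND6 is lowest in R625H, K666T and WT but not in K700E.

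Per kb of gene, MT-CO1, the catalytic core of cytochrome c oxidase, had the highest level in each library, at 7270 CPM per kb in R625H, 6614 in K666T, 5297 in K700E and 7115 in WT. Next in R625H, K666T and WT came MT-CO3 and MT-CO2, the other core subunits of complex IV, with 5199, 4781 and 5553 CPM per kb for MT-CO3 in those libraries. In K700E the large rRNA gene MT-RNR2 stood between them and MT-CO1, at 4312 CPM per kb against 3880 for MT-CO3. These levels are those of poly(A)-selected RNA, and the order of rRNA and mRNA genes in total RNA was not measured. MT-ND6 was the lowest of the 15 in R625H (490.5 CPM per kb), K666T (487.4) and WT (486.7), and in K700E it had 1275 CPM per kb. There the lowest gene was MT-CYB, cytochrome b of complex III, at 884.1 CPM per kb. Within a library, neighbours such as MT-ND3 and MT-ND2 in WT, at 1675.2 and 1674.6 CPM per kb, could not be ordered.

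Reads of the rRNA genes in these poly(A)-selected libraries were higher in each mutant library, and most in K700E. Whether the selection bears on the rRNA values was not tested. MT-RNR1 (chrM:648-1601), the 12S rRNA of the small mitochondrial ribosomal subunit, had 92330 reads (1122 CPM) in R625H, 93635 (1084 CPM) in K666T, 120689 (1454 CPM) in K700E and 73824 (811.8 CPM) in WT. Its log2 ratios were 0.47 (0.45 to 0.48) in R625H, 0.42 (0.40 to 0.43) in K666T and 0.84 (0.83 to 0.85) in K700E, and its WT level was the lowest of the 4. MT-RNR2 (chrM:1671-3229), the 16S rRNA of the large subunit, had 449167, 446088, 558131 and 447219 reads in R625H, K666T, K700E and WT. Its log2 ratios of 0.15 (0.15 to 0.16), 0.07 (0.06 to 0.08) and 0.45 (0.45 to 0.46) were smaller than those of MT-RNR1. For each 100 reads of MT-RNR2 there were 20.6, 21.0 and 21.6 of MT-RNR1 in R625H, K666T and K700E, against 16.5 in WT.

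A gene was counted as different from WT when its log2 ratio was at least 0.32 (25% higher) or at most -0.32 (20% lower). In R625H, 2 of the 20 members were higher, MT-RNR1 and MT-TI, beside 5.34% of all 14847 genes that passed the filter. The same 2 members were higher in K666T, beside 7.13% of all genes. In K700E, 3 of 20 were higher, MT-RNR1, MT-RNR2 and MT-ND6, beside 11.2%. Lower were 0 of 20 in R625H (all genes 4.43%), 0 in K666T (3.89%) and 9 in K700E (8.69%), all 9 of them heavy-strand mRNAs. The share of lower members in K700E was thus above that of all genes, while the other counts were small and stood near theirs.

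Abundant genes, with at least 100 CPM in at least 1 library, took in 15 members and 2584 genes in all. Among them MT-RNR1 was the 1 member that was higher in R625H (1.7% of all) and in K666T (2.71%), and 0 members were lower (1.08% and 0.735%). In K700E the 9 lower members stood beside 3.68% of abundant genes and the 3 higher ones beside 5.53%. At least 2-fold higher was MT-ND6 alone, in K700E, beside 1.33% of all genes and 0.929% of abundant ones. No member was 2-fold higher in R625H (0.68% of all genes, 0.542% of abundant ones) or K666T (0.7% and 0.464%). None was 2-fold lower in R625H (0.0202%), K666T (0.00674%) or K700E (0.424%), and of abundant genes 0.0% were in any of the 3. The median over the 20 members was 0.08 in R625H, -0.09 in K666T and -0.20 in K700E, and the median over all genes -0.02, -0.00 and 0.00.

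**Figure D2:**
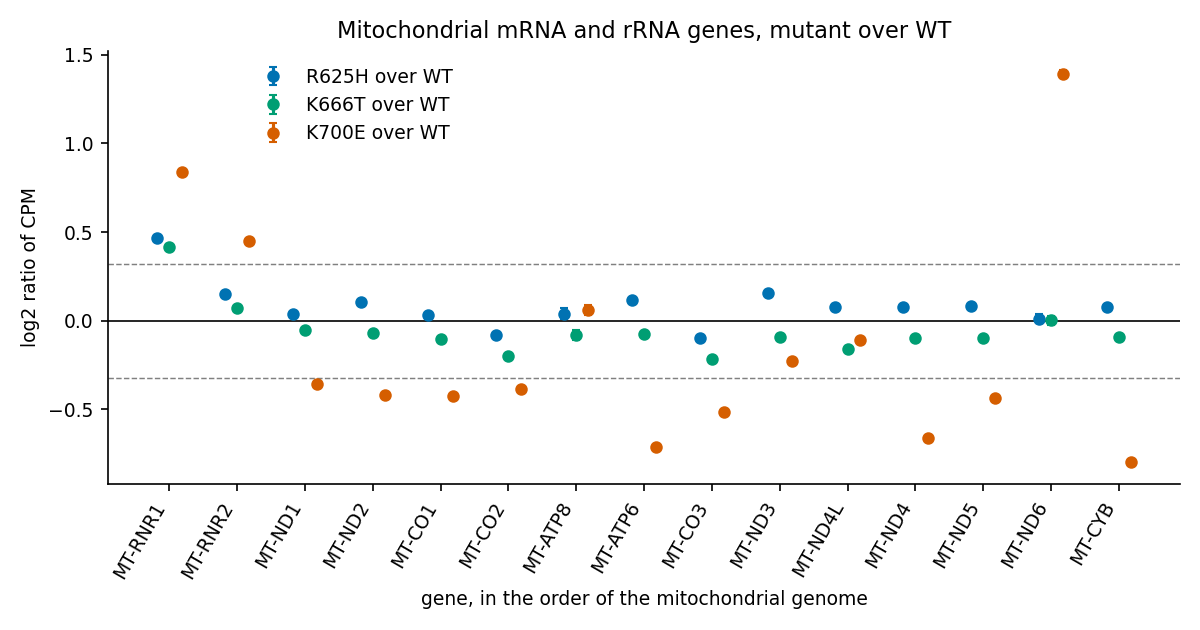
Log2 ratio of CPM, mutant over WT, for the 15 mitochondrial mRNA and rRNA genes in genome order; bars are 95% counting intervals, mostly smaller than the points, and dashed lines mark log2 ratios of 0.32 and -0.32. K700E (orange) reaches 0.84 at MT-RNR1, 1.39 at MT-ND6 and -0.80 at MT-CYB, while R625H and K666T stay between these lines at every gene but MT-RNR1.

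The 12 heavy-strand mRNAs together had 2926538 reads in R625H, 2770938 in K666T, 2078741 in K700E and 3168614 in WT. Their log2 ratios were 0.03 in R625H, -0.12 in K666T and -0.48 in K700E. The K666T library was below WT at all 12 genes and the K700E library at 11, counting those whose interval lay below 0, while R625H was above at 10 and below at 2. The exception in K700E was MT-ATP8, with 18604, 17955, 19057 and 20002 reads in R625H, K666T, K700E and WT and a K700E ratio of 0.06. With this many reads even small ratios are counted, such as MT-ND1 in K666T at -0.05 (-0.06 to -0.04). The share of all genes past this criterion was not computed. Genes read from the same long transcripts are not independent of each other.

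In complex I, which passes electrons from NADH to ubiquinone, the 6 heavy-strand subunits summed to log2 ratios of 0.08 in R625H, -0.09 in K666T and -0.47 in K700E. MT-ND4 (chrM:10760-12137), a proton-pumping membrane subunit, had 419645 reads in R625H, 390479 in K666T, 253786 in K700E and 439555 in WT. Its K700E ratio of -0.66 (-0.67 to -0.65) was the lowest of the complex, and K700E was its lowest library. MT-ND5 had 199365, 184604, 140677 and 208311 reads in the same order and a K700E ratio of -0.43. MT-ND1 and MT-ND2 lay at -0.36 and -0.42 in K700E. MT-ND3 and MT-ND4L, the shortest of the 6, had -0.23 and -0.11 and stayed above -0.32. With MT-ATP8 they are also the 3 shortest of the 12 heavy-strand mRNAs, at 207 to 346 bases, and they had the 3 smallest K700E ratios in size. Whether gene length or fragment length bears on this was not tested.

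MT-CYB (chrM:14747-15887), the only mitochondrially encoded subunit of complex III, had 151998 reads in R625H, 142055 in K666T, 83751 in K700E and 159458 in WT. Its K700E ratio of -0.80 (-0.81 to -0.79) was the lowest of the 20 members that passed the filter, with 0.08 in R625H and -0.09 in K666T. In complex IV, MT-CO1 had 922053, 881062, 678106 and 997799 reads in R625H, K666T, K700E and WT, with log2 ratios of 0.03, -0.11 and -0.43. MT-CO3 lay at -0.09, -0.22 and -0.52 and MT-CO2 at -0.08, -0.20 and -0.39; these 2 subunits were the heavy-strand mRNAs below WT in all 3 mutant libraries. In ATP synthase, MT-ATP6, which forms the proton channel with the ring of nuclear-encoded c subunits, had 174448, 160705, 99333 and 178100 reads and log2 ratios of 0.11, -0.07 and -0.71. Its reads thus moved apart from those of MT-ATP8, its partner on the same bicistronic mRNA, where pairs that touch both genes are left out. The other such pair also differed in K700E, with -0.11 for MT-ND4L and -0.66 for MT-ND4. Whether the counting of short overlapping genes bears on this was not tested.

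MT-ND6 (chrM:14149-14673), the 1 light-strand mRNA, moved against all these in K700E. It had 21182 reads in R625H, 22108 in K666T, 55595 in K700E and 23237 in WT, or 257.5, 255.9, 669.6 and 255.5 CPM. The K700E library stood alone and the other 3 lay within 2 CPM of each other. The log2 ratio was 0.01 (-0.02 to 0.04) in R625H, 0.00 (-0.02 to 0.03) in K666T and 1.39 (1.37 to 1.41) in K700E. For each 100 reads of MT-ND5, the neighbour on the other strand, there were 10.6 of MT-ND6 in R625H, 11.98 in K666T, 39.5 in K700E and 11.2 in WT. Over all 37 genes, those of the light strand held 0.651% of mitochondrial reads in R625H, 0.710% in K666T, 2.04% in K700E and 0.670% in WT. Most of these light-strand reads were MT-ND6.

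As shares of the mitochondrial reads alone, which do not depend on nuclear RNA, the rRNAs took 15.5% in R625H, 16.2% in K666T, 24.1% in K700E and 14.0% in WT. Heavy-strand mRNAs took 83.8, 83.1, 73.8 and 85.3%. MT-ND6 took 0.607, 0.663, 1.97 and 0.626%. For every 100 reads of heavy-strand mRNA there were 18.5 of rRNA in R625H, 19.5 in K666T, 32.7 in K700E and 16.4 in WT. The shift in K700E was therefore present within the mitochondrial reads of these poly(A)-selected libraries, without reference to the nuclear genes.

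**Figure D3:**
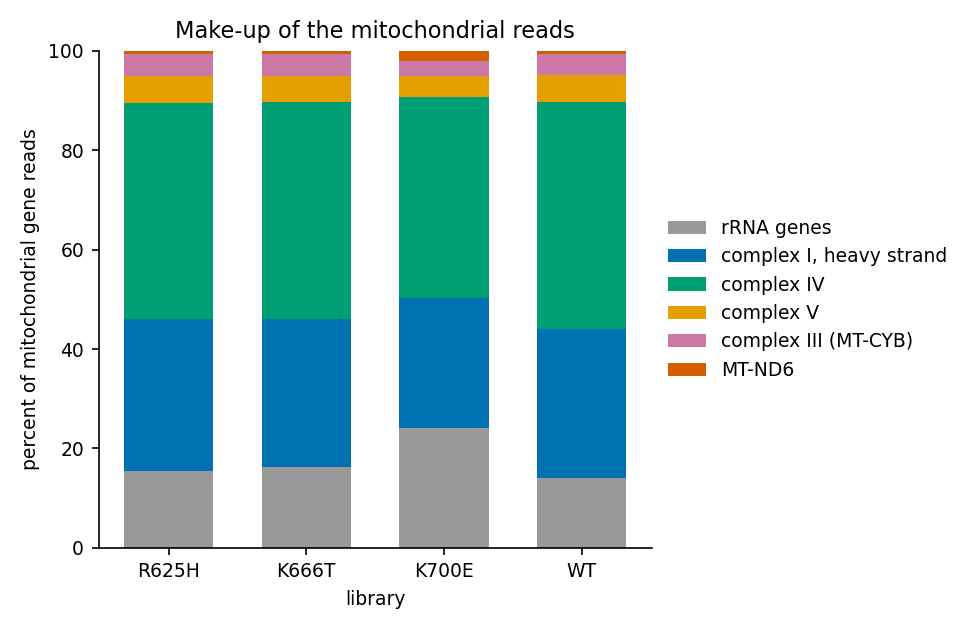
Percent of mitochondrial gene reads in each library (stacked from 0 to 100) for the rRNA genes, the heavy-strand mRNAs of complexes I, IV, V and III, and MT-ND6; tRNA genes hold under 0.1% and are not drawn. The K700E bar has the tallest rRNA part, 24.1% against 14.0% in WT, and the tallest MT-ND6 part.

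Reads on the strand opposite to a gene report transcripts of the other direction. They took 5.73% of reads on both strands over the 37 genes in R625H, 5.79% in K666T, 7.60% in K700E and 5.91% in WT, and 5.74, 5.71, 5.91 and 5.79% over all other genes. A fragment that crosses the border of genes on opposite strands counts as sense for one and opposite for the other, so these sums hold some fragments in both places. The share was very uneven along the genome. It was lowest at the rRNA genes, where MT-RNR1 had 0.0617, 0.0672, 0.0315 and 0.0663% in R625H, K666T, K700E and WT. At MT-ND5 it was 25.6% in R625H, 27.7% in K666T, 44.0% in K700E and 27.3% in WT.

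**Figure D4:**
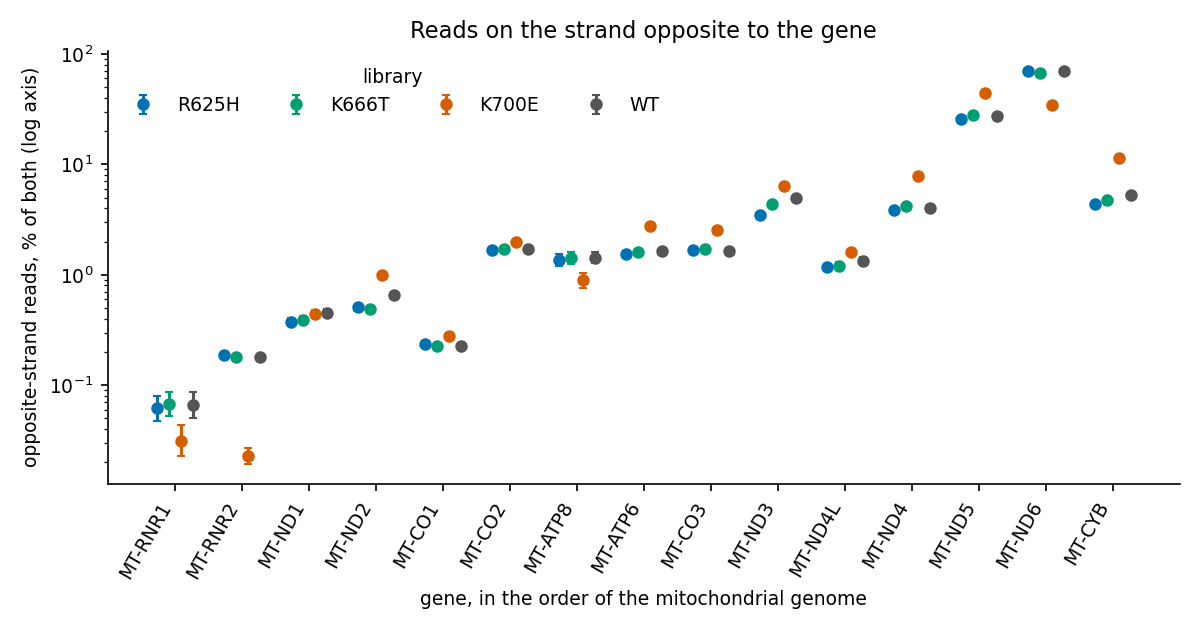
Reads on the strand opposite to each gene as percent of reads on both strands (log axis), with Wilson 95% intervals, 1 point for each library. Among the 12 heavy-strand mRNA genes the K700E point is above that of WT at 10, all but MT-ND1 and MT-ATP8; at MT-ND6 it lies below, at 34.4% against 67.7 to 70.4%.

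Opposite MT-ND5, where transcripts that carry MT-ND6 continue, 68574 reads were found in R625H, 70720 in K666T, 110311 in K700E and 78369 in WT. Scaled to gene reads, these gave log2 ratios of -0.05, -0.07 and 0.62 (0.61 to 0.64). Light-strand reads were thus higher in K700E here as at MT-ND6, but fragments that cross the border of these genes count in both places. How much of the rise opposite MT-ND5 comes from such fragments was not tested. Further along the same transcript, reads opposite MT-ND4 came to 16971, 16998, 21619 and 18345 in R625H, K666T, K700E and WT, with a K700E ratio of 0.37 (0.34 to 0.40). Opposite MT-CYB, upstream of MT-ND6 on the light-strand transcript, they came to 6900, 7072, 10656 and 8872, with a K700E ratio of 0.40 (0.35 to 0.44). R625H and K666T were lower than WT there, at -0.22 and -0.25.

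The opposite-strand share was higher than in WT at 2 of the 12 heavy-strand mRNA genes in R625H, 5 in K666T and 10 in K700E. At MT-ATP6, for example, it was 1.55, 1.60, 2.75 and 1.63% in R625H, K666T, K700E and WT. This share also depends on the reads of the gene itself, and the opposite-strand reads alone were not all alike. In K700E the interval of the opposite-strand ratio lay above 0 at 7 and below 0 at 4. Those below were MT-ND1 (-0.40), MT-CO1 (-0.11), MT-CO2 (-0.15) and MT-ATP8 (-0.59). In R625H it lay above 0 at 2 and below at 7, and in K666T above at 0 and below at 11. The share of all genes past this criterion was not computed here either. Reads opposite MT-RNR2, far along the light-strand transcript, numbered 837, 802, 128 and 802 in R625H, K666T, K700E and WT, a K700E ratio of -2.43 (-2.80 to -2.25). The higher light-strand reads around MT-ND6 in K700E were thus not seen opposite MT-RNR2. Opposite MT-RNR1 the reads were too few to tell, 38 in K700E and 49 in WT, a ratio of -0.17 (-0.89 to 0.41).

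The strand opposite MT-ND6 holds the 3′ end of the MT-ND5 mRNA, whose untranslated tail is known to lie there. It had 50433 reads in R625H, 46275 in K666T, 29090 in K700E and 53877 in WT, log2 ratios of 0.05, -0.15 and -0.76. MT-ND5 itself had 0.08, -0.10 and -0.43. The strand opposite MT-TS1, the serine tRNA gene after MT-CO1, likewise holds the end of the MT-CO1 mRNA. It had 32149 reads in R625H, 28467 in K666T, 22280 in K700E and 32573 in WT, ratios of 0.13, -0.12 and -0.42, where MT-CO1 had 0.03, -0.11 and -0.43. For each 100 reads of MT-CO1 there were 3.49 in R625H, 3.23 in K666T, 3.29 in K700E and 3.26 in WT. MT-TS1 had 0 unstranded reads in each library, so the pairs counted there also touched another gene. Pairs that run on from MT-CO1, or from MT-ND5 into MT-ND6, count in both places, so these ratios are not independent. The own-strand sequence of MT-TS1, 69 bases, is given since nearly all reads here come from its complement.
MT-TS1: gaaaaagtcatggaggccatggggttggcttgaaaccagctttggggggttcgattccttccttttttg
On its own strand MT-TS1 had 280, 294, 308 and 301 reads in the same libraries.

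**Figure D5:**
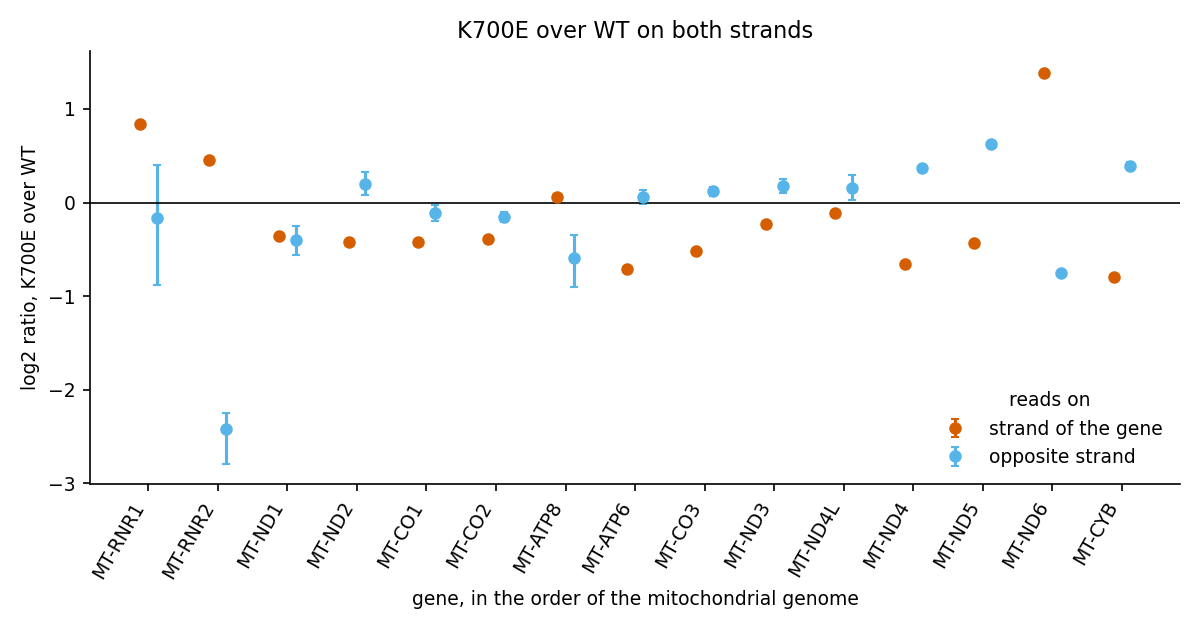
Log2 ratio of K700E over WT for reads on the strand of each gene (orange) and on the opposite strand (blue), with 95% counting intervals; both are scaled to the same gene reads. MT-ND4, MT-ND5 and MT-CYB are lower on their own strand and higher on the opposite one, and MT-ND6 is the reverse.

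Mature tRNAs are short and carry no poly(A) tail, and reads in their genes were few. The 22 tRNA genes together had 1839 reads in R625H, 1925 in K666T, 2046 in K700E and 1951 in WT. At least 50 reads in at least 1 library were found for 8 of them. Of these, MT-TP (proline) had 649, 678, 649 and 616 reads in R625H, K666T, K700E and WT, and MT-TQ (glutamine) 486, 466, 598 and 583. MT-TI (isoleucine) had 143, 167, 100 and 125 reads, with log2 ratios of 0.33 (-0.02 to 0.70), 0.46 (0.15 to 0.84) and -0.16 (-0.58 to 0.20). Its interval in R625H spans 0. MT-TE (glutamate) had 91, 98, 126 and 122 reads.

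MT-TA, the alanine tRNA gene of the light strand, had 14 reads in R625H, 16 in K666T, 60 in K700E and 19 in WT. K700E alone was high, but the gene did not pass the filter. MT-TM (methionine) had 41, 53, 64 and 46 reads and MT-TT (threonine) 65, 70, 54 and 63. The other 14 tRNA genes had at most 39 reads in any library, and 6 of them had no read on either strand in any library. For assigned reads, a count of 0 allows up to 0.0365 CPM in R625H, 0.0347 in K666T, 0.0361 in K700E and 0.0330 in WT. It sets no limit on the RNA, since pairs that also touch a neighbouring gene on the same strand are not assigned. MT-TV, for example, has 69 bases and adjoins MT-RNR1 and MT-RNR2, while the reads have 100 bases.

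Of the 8 light-strand tRNA genes, 7 had more reads on the opposite strand than on their own in all 4 libraries; MT-TA was the exception, with 60 own and 56 opposite reads in K700E. MT-TY (tyrosine) had 6954 opposite reads in R625H, 7106 in K666T, 7099 in K700E and 9265 in WT, against 16 to 18 on its own strand. MT-TN (asparagine) had 1309 opposite reads in R625H, 50 in K666T, 60 in K700E and 68 in WT. R625H alone was high there.

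Nuclear copies of mitochondrial genes, pseudogenes with near-identical sequence, can share reads with the members. The gene tables hold 389 of them by symbol, 58 with reads, and together they had 4531 reads in R625H, 5201 in K666T, 2396 in K700E and 5526 in WT. That is 0.130, 0.156, 0.0851 and 0.149 reads for each 100 mitochondrial reads. The sum in K700E was lower by 1.07 (log2 ratio -1.07), with -0.14 in R625H and -0.01 in K666T. The 5 with the most reads were MTCO3P12 (1556, 2471, 1001 and 1982 reads in R625H, K666T, K700E and WT), MTCO1P12, MTND4P12, MTATP6P1 and MTND1P23. Their K700E ratios ran between -1.43 and -0.83. Which of these reads come from mitochondrial RNA was not tested.

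Most nuclear genes that act on mitochondrial RNA and DNA stayed between log2 ratios of -0.32 and 0.32. Beside them, 5.34, 7.13 and 11.2% of all genes were higher and 4.43, 3.89 and 8.69% lower, in R625H, K666T and K700E. Of 8 transcription genes, among them the polymerase POLRMT and its factors TFAM and TFB2M, 0 were past these limits in any mutant library. POLRMT had 119.9, 109.4, 102.1 and 122.4 CPM in R625H, K666T, K700E and WT, and TFAM 105.2, 109.6, 107.5 and 96.4 CPM. Of 28 measured genes of RNA processing and decay, 1 was higher and 1 lower in K700E, 0 in K666T, and 1 lower in R625H (FASTKD1, a mitochondrial RNA-binding protein, at -0.39). The higher one was PNPT1, the mitochondrial polynucleotide phosphorylase, which with the helicase SUPV3L1 degrades light-strand RNA. It had 144.1 CPM in R625H, 132.8 in K666T, 229.6 in K700E and 122.9 in WT, log2 ratios of 0.23, 0.11 and 0.90. The lower one was RPUSD3, a pseudouridine synthase of mitochondrial RNA, at -0.09, -0.22 and -0.39.

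Of 17 genes of mitochondrial DNA maintenance, TWNK, the replicative helicase Twinkle, was higher in K700E (all genes 11.2%). It had 87.3, 91.8, 104.7 and 81.5 CPM in R625H, K666T, K700E and WT. LIG3, a DNA ligase with a mitochondrial form, was lower by 0.72 in R625H (-0.72) and by 0.43 in K666T (-0.43), with -0.30 in K700E. Of all genes, 4.43% were lower in R625H and 3.89% in K666T. Of 7 regulators of mitochondrial biogenesis, 0 were past the limits in any mutant library, beside the shares of all genes given above.

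A list of 38 nuclear-encoded subunits of complexes I, III, IV and V was compared with the mitochondrially encoded ones. It does not hold every subunit, and for complex I it has 7 genes. Of 37 measured, 10 were lower by the same limit in K700E (all genes 8.69%, abundant genes 3.68%), 1 in K666T (all genes 3.89%) and 0 in R625H (4.43%), and 0 were higher in any of the 3. Their medians were -0.06 in R625H, -0.11 in K666T and -0.17 in K700E. In complex IV the lower genes in K700E were the subunits COX8A (-1.11), COX6A1 (-1.03), COX5A (-0.81) and COX5B (-0.53), while COX4I1, of the same complex, was at 0.01. COX8A had 42.0, 41.6, 22.2 and 48.2 CPM in R625H, K666T, K700E and WT, so that K700E was the lowest. In ATP synthase they were the delta subunit ATP5F1D (-0.95), which was also the 1 lower gene in K666T (-0.37), and the c subunit gene ATP5MC2 (-0.33). In complex III they were UQCR11 (-0.48), cytochrome c1 (CYC1, -0.41) and the Rieske protein (UQCRFS1, -0.36), and in complex I NDUFS3 (-0.36).

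A list of 8 genes around double-stranded RNA held the sensors RIGI, IFIH1 (MDA5) and EIF2AK2 (PKR), the adaptor MAVS, the RNA editor ADAR, the cytokine IFNB1, and BAX and BAK1, which open the outer mitochondrial membrane. Of these, 4 were higher by the same limit in R625H (all genes 5.34%), 4 in K666T (7.13%) and 5 in K700E (11.2%), and their medians were 0.43, 0.34 and 1.20. RIGI had 3873 reads in R625H, 3055 in K666T, 16039 in K700E and 891 in WT, log2 ratios of 2.25, 1.84 and 4.29. IFIH1 had 250, 225, 904 and 96 reads, ratios of 1.44, 1.22 and 3.24. IFNB1, the gene of interferon beta, had 67, 57, 362 and 8 reads, with a K700E ratio of 4.50 that the prior count of 10 makes smaller. It passed the filter only through K700E, at 4.36 CPM, with 0.81 in R625H, 0.66 in K666T and 0.088 in WT. The counts and medians of this list include IFNB1 in every mutant library. The list was chosen with earlier results of these data known. EIF2AK2 lay at 0.64, 0.50 and 1.59 and ADAR at 0.18, 0.17 and 0.80, and these 5 genes were each highest in K700E and lowest in WT. BAX, BAK1 and MAVS lay at 0.21, 0.28 and -0.04 in K700E. K700E was also the library with the highest MT-ND6, and the part of these genes in the mitochondrial result was not tested.

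Set against each other, R625H and K666T received equal plasmid amounts. R625H was higher at the 12 heavy-strand mRNAs by a log2 ratio of 0.15 (0.15 to 0.15), at the rRNAs by 0.08 (0.07 to 0.08), and at MT-ND6 by 0.01 (-0.02 to 0.04). K700E was lower than R625H at the heavy-strand mRNAs by 0.51 (-0.51) and lower than K666T by 0.36 (-0.36). It was higher at the rRNAs by 0.31 and 0.39 and at MT-ND6 by 1.38 and 1.39, over R625H and K666T in that order. K700E had 2000 ng of plasmid, so mutation, plasmid amount and the library itself cannot be told apart in these differences. The classes moved in different directions in K700E. In bulk RNA, the number of mitochondria per cell and the RNA per mitochondrion cannot be told apart either.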

How the data were processed

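RNA of 4 HEK293T libraries was read as 100-bp pairs from a TruSeq stranded mRNA preparation, which selects poly(A) RNA, per the labels' protocols. Raw counts of reads for each gene and junction are what the authors deposited; the submitters' processing notes name STAR 2.5.3a, HTSeq and hg19/GRCh37, and no source used here gives the annotation release or the role of HTSeq. Column 4 of the gene tables (opposite strand to read 1) was used as the strand of the gene, column 3 as the opposite strand and column 2 as the unstranded alternative. Library sizes leave out the 4 rows without a gene, which held unmapped (8.84 to 17.3% of pairs), multimapping (4.01 to 4.40%), unassigned (5.01 to 5.87%) and ambiguous pairs (3.04 to 3.43%).

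Junctions on chrM matched their stated motif in the GENCODE 29 transcripts only when shifted by 1 base (270 of 271 beyond the rRNA genes) or by 2 bases (18 of 18 before that). The chrM numbering of the alignment therefore differs from GRCh38, and gene positions are printed on GRCh38. Whether the counting used shifted gene borders was not tested; it would bear on reads at borders between adjacent genes, and so on the tRNA genes most.

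Log2 ratios used CPM with a prior count of 10 over 14847 genes with at least 1 CPM in at least 1 library. Intervals of ratios are exact conditional binomial and those of shares Wilson, both 95% and for counting error only, since reads carry no molecular identifiers. The limits were log2 ratios of 0.32 in size and 2-fold. No test across samples was possible with 1 library per group. Named are all protein and rRNA genes, tRNA genes with at least 50 reads in 1 library, the 5 nuclear copies with the most reads, and from each of 9 comparison lists up to 5 genes past the 0.32 limit in K700E, by size; POLRMT, TFAM, TFB2M, SUPV3L1, FASTKD1, LIG3, COX4I1, MAVS, BAX, BAK1, MT-TY and MT-TN were named outside this rule, after their values were seen. Of 123 list symbols, 3 were not matched (MRM1, NEFL and PECAM1). The members and lists were chosen with earlier results of these data known. The ratios were checked on simulated counts. Alternatives were TMM (edgeR 4.0.16), DESeq2 1.42.0 size factors, library sizes without mitochondrial genes, a prior count of 1, unstranded counts and no filter. Python 3.11.15 and R 4.3.3 were used. One marker of another cell type is not reported here.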

Additional observations from a re-analysis of the deposited data

Results flagged for a closer look

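Human mitochondrial genes have no introns, yet the junction tables list uniquely mapped spliced reads on chrM, data used in no comparison above. They came to 26.3 for each 1000 mitochondrial gene reads in R625H (26.1 to 26.4), 19.8 in K666T (19.6 to 19.9), 29.1 in K700E (28.9 to 29.3) and 20.3 in WT (20.1 to 20.4), so that R625H and K700E were above WT. A single junction weighed on each total. The junction 9088 to 9184 (hg19 numbering of the files) had 12264 unique reads in R625H, with 0 listed in the other libraries. The junction 2842 to 3322 had 21007 in K700E, with 0 listed in the others. Whether filtering of the junction lists bears on these values was not tested. Without the most-read junction of each library the values were 22.7 in R625H, 18.1 in K666T, 21.7 in K700E and 18.1 in WT. Of 250 different junctions, 199 had listed reads in 1 library only and 5 in all 4. Their source was not tested.

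The heavy-strand mRNAs as a group moved in different directions between mutants, with log2 ratios to WT of 0.0302 in R625H, -0.120 in K666T and -0.477 in K700E. The difference between mutants was not tested, since each has 1 library.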

How the results depend on the processing

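No paired analysis was possible because each group has 1 library. Under TMM, DESeq2 size factors, library sizes without mitochondrial genes, a prior count of 1 and no filter, all 16 ratios past 0.32 in size kept their sign and their side of that limit; with unstranded counts 14 could be measured, 14 kept the sign and 12 stayed past the limit. The median over all genes stayed within 0.03 of 0 under the other scalings and was 0.11 in K700E without a filter. MT-ND6 in K666T, near 0, changed sign under the 3 scalings, which left 13 of 13 protein genes below WT in place of 12. With unstranded counts, genes past that limit and higher numbered 1 in R625H and 1 in K666T, and those 2-fold higher in K700E numbered 0. Unstranded MT-ND6 reads mix both strands and leave out pairs that also touch a neighbouring gene on either strand. They numbered 48707 in K700E and 44580 in WT, beside 55595 and 23237 on the gene's own strand. Without a filter, 1 gene in R625H and 1 in K666T was past the 0.32 limit and lower. In K700E 8 were higher, 2 of them 2-fold.

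Given in the order R625H, K666T, K700E and WT, the mitochondrial share was 4.51, 4.11, 3.66 and 4.35% with unstranded counts and 3.03, 2.72, 2.43 and 3.19% of all pairs, where R625H lies below WT. Among protein genes alone, light-strand reads made up 0.719, 0.792, 2.60 and 0.728%. The opposite-strand share was 5.22, 5.43, 8.29 and 5.41% for the 13 protein genes and 2.75, 2.71, 3.38 and 2.80% without MT-ND6 and the genes next to it. Without rRNA in the total, MT-ND6 took 0.718, 0.791, 2.60 and 0.728%.

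Counting intervals were wide where reads were few, as at the tRNA genes and on the strand opposite MT-RNR1 and MT-ATP8. With 1 library per group, the spread between replicates is unknown for every gene.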
